A study of Rattus norvegicus with 6 samples.

Results

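The pathway described here carries UDP-glucose to glucuronate and on to either xylulose or ascorbate in rat liver, and 8 of its genes were followed: Ugp2, Ugdh, Akr1a1, Cryl1, Dcxr, Xylb, Rgn and Gulo. Every probe set with 1 of these symbols in the platform annotation was taken, which gave 9 of the 31099 probe sets on the array, 2 of them for Gulo and 1 for each other gene. All 8 genes were bright enough to be tested, among 9200 genes tested in all. The set was chosen by the log2 difference of Cryl1 between treated and control arrays, which had been seen before, and the lower signal of Gulo was known as well. The other genes were taken for their place in the pathway. The difference of Cryl1 between the groups is therefore given as a description, with no interval or p-value. Its place among the genes past the threshold is counted below, and nothing is read from it.

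The livers came from male BrlHan:WIST@Jcl(GALAS) rats, which arrived at an age of 4 weeks, spent 1 week in quarantine and were 7 weeks old when sampled. The control group was 3 rats on a powdered diet with no test compound. The treated group was 3 rats given the same kind of diet with epsilon-momfluorothrin, a synthetic pyrethroid insecticide, for 2 weeks. The dose of the treated group is stated as 3000 ppm in the titles and the treatment protocol and as 5000 ppm in the characteristics, so it is not settled. Each rat gave 1 Affymetrix array of biotin-labelled RNA from whole liver, and a signal below is the linear MAS5 value of 1 probe set on 1 array.

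The pathway starts from UDP-glucose, which is oxidised to UDP-glucuronate, the sugar donor that glucuronosyltransferases attach to drugs, bilirubin and steroids. Free glucuronate is reduced to gulonate, where the route divides. One branch oxidises gulonate and passes through xylulose and xylitol into the pentose phosphates, and the other closes gulonate into a lactone and oxidises it to ascorbate, which rat liver makes for the whole animal. Inducers of drug metabolism have long been known to raise ascorbate excretion in rats.

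Promoter sequences are shown for Cryl1 and Dcxr, the genes whose signals were higher on all 3 treated arrays than on any control array. RefSeq entries of assembly GRCr8 were found for 7 of the 8 members, and Gulo had none in the table used. Each sequence is the 250 bases before the annotated start, on the gene's own strand, with matches to 7 short motifs in capitals. The motifs, searched on both strands, were the antioxidant response core TGACNNNGC, the dioxin response core GCGTG, the nuclear receptor hexamer AGGTCA, the CCAAT box CCAAT, the TATA box TATAAA, the GC box GGGCGG and the E-box CACGTG. In these sequences the capitals are GC boxes, CCAAT boxes and dioxin response cores, and no capitals of different motifs overlap. The Cryl1 window lies at chr15:35661564-35661813 and the Dcxr window at chr10:106506620-106506869, both on the minus strand.
Cryl1: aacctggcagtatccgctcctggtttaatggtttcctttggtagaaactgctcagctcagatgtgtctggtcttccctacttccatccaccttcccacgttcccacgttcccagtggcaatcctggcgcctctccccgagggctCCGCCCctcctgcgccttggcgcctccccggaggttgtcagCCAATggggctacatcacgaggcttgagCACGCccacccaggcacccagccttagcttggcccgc
Dcxr: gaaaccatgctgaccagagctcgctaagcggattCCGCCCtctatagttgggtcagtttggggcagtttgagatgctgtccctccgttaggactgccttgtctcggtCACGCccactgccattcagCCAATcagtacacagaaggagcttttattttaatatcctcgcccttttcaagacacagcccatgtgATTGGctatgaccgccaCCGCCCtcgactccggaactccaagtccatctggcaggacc

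In Cryl1 the GC box began 106 bases before the start, the CCAAT box 65 and the dioxin response core 37. Dcxr had GC boxes 216 and 41 bases before the start, CCAAT boxes at 124 and 58, and a dioxin response core at 143. Of the 7 members searched, these 2 held all 3 of the motifs, as did 4.49% of the 33469 promoters in the table, a combination picked after the matches were seen. Counted singly, the dioxin response core occurred in 5 of the 7 members and in 25.9% of all promoters, the GC box in 5 of the 7 and in 30.5%, and the CCAAT box in 3 of the 7 and in 34%. The 7 windows were 51.6% to 70.4% G and C, against a median of 51.2% over all promoters. The dioxin response core and the GC box are themselves rich in G and C, and the shares were not compared at equal content. The antioxidant response core was found in Ugdh alone, where it shares bases with a dioxin response core (10.1% of all promoters), and the receptor hexamer in Rgn alone (14.1%). A TATA box and an E-box were not found in any of the 7 windows, against 12.9% and 5.59% of all promoters. Such matches describe the letters and show no binding.

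Array medians ran from 27.0 to 29.4 in control and from 23.1 to 26.5 in treated livers, at a common trimmed mean of about 100. Pairs of arrays had r of 0.958 or more on the log2 scale, whether or not they shared a group. All 6 hepatocyte markers on the array, among them Alb and Ttr, were above the array median and tested, and none of the 5 kidney tubule markers, of a tissue rich in several of these enzymes, exceeded the array median on any array. Whole liver holds several cell types, and fewer cells of a type cannot be told apart from less RNA per cell in any value below.

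In the trunk of the pathway, Ugp2 had the highest of the log2 differences apart from Cryl1. Ugp2 encodes UDP-glucose pyrophosphorylase, which makes UDP-glucose for glycogen and for glucuronidation. Its signals, here and below in the order of replicates 1 to 3, were 1929, 1799 and 2499.95 on the control arrays, against 2421, 3397 and 3069 on the treated arrays. Treated replicate 1 lay just below control replicate 3, so the groups overlapped. The mean was 2076 ± 373 on the control arrays against 2962 ± 497 in treated livers (SD, n = 3), a log2 difference, treated minus control, of 0.51 with a 95% interval of 0.17 to 0.86. This difference was above that of 97.4% of all genes tested.

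Ugdh, the UDP-glucose dehydrogenase that oxidises UDP-glucose to UDP-glucuronate, varied most among the control rats apart from Cryl1. Its signals were 864, 677 and 1180.5 on the control arrays against 949, 1205.5 and 1155 on the treated arrays. Control replicate 3 lay inside the treated range, and control replicate 2 was the lowest of all arrays. The log2 difference was 0.31, with an interval of -0.11 to 0.73. Leaving out control replicate 3 made it 0.52 and leaving out control replicate 2 made it 0.12. It was 0.49 with median centring and 0.26 with quantile normalization.

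Akr1a1, the aldehyde reductase that reduces glucuronate to gulonate, had values that overlapped between groups. Its signals were 1494, 1495 and 1672 on the control arrays against 1796, 1617 and 1704 on the treated arrays. Both groups were tight, with coefficients of variation of 6.59% and 5.25%. The log2 difference was 0.14, with an interval of -0.05 to 0.32. It was 0.31 with median centring and 0.09 with quantile normalization.

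**Figure D1:**
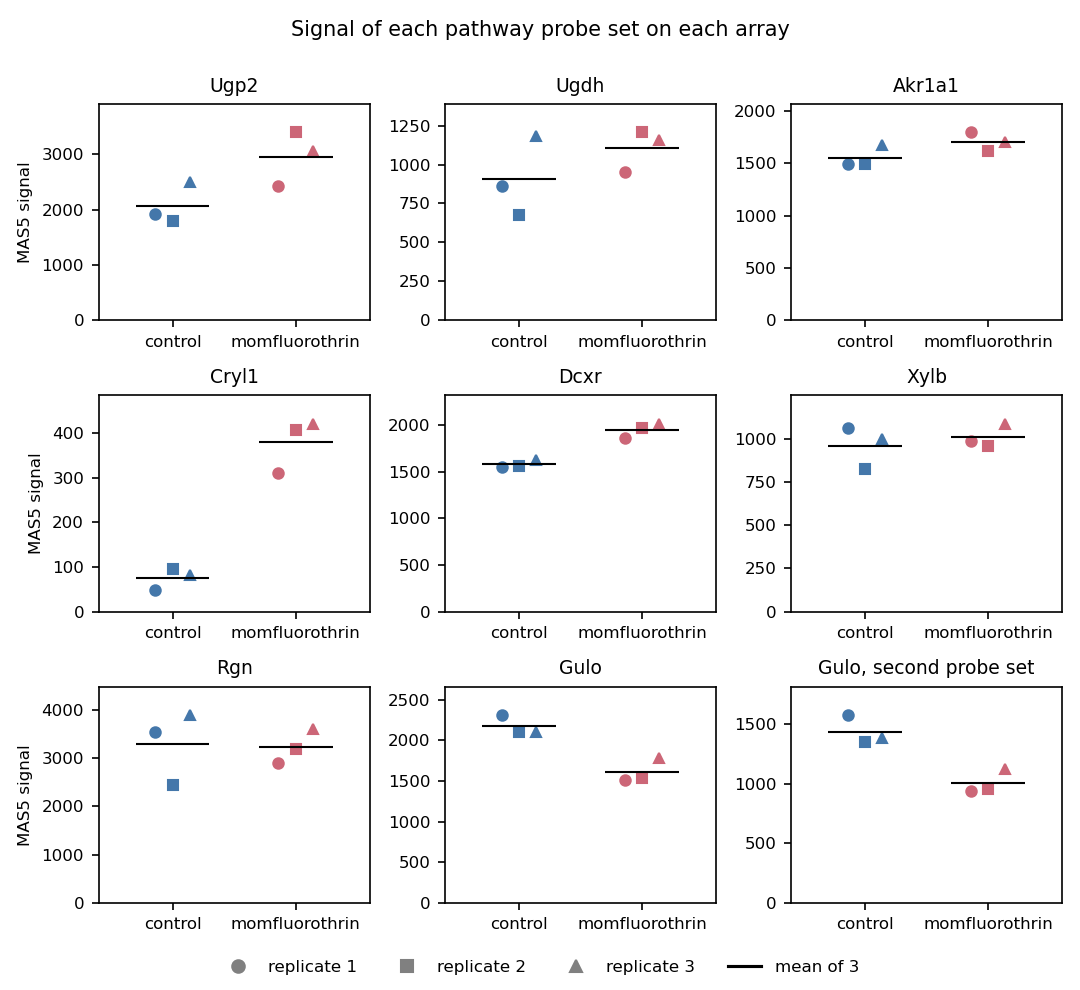
Linear MAS5 signal (vertical axis, from 0, own scale in each panel) of the 9 pathway probe sets on the 6 arrays, by group; marker shape gives the replicate number and the bar the mean of 3. The groups are separate for Cryl1, Dcxr and both Gulo probe sets and overlap for the other 5.

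On the xylulose branch Cryl1, the gulonate dehydrogenase also known as lambda-crystallin homologue, stood far from the rest. Its signals were 47.4, 94.5 and 81.6 on the control arrays against 311, 406 and 421 on the treated arrays. Every treated array was above every control array, and the gap between the groups was wider than the span of the control rats. The mean went from 74.5 ± 24.3 to 379 ± 59.5 (SD, n = 3), a log2 difference of 2.39, or 5.26-fold. In control livers the probe set was only 1.75 to 3.31 times the array median, and in treated livers 12.0 to 18.2 times. The relative spread was wider at the low control level (coefficient of variation 32.7%) than in treated livers (15.7%). No other probe set measured Cryl1.

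Dcxr, the dicarbonyl and xylulose reductase of the next steps, was the steadiest member. Its signals were 1548, 1565 and 1621 on the control arrays against 1859.7, 1965 and 2015 on the treated arrays. The groups did not overlap, with coefficients of variation of 2.41% in control and 4.07% in treated livers. The mean went from 1578 ± 38.1 to 1946 ± 79.2 (SD, n = 3), a log2 difference of 0.30 with an interval of 0.14 to 0.46, or 1.23-fold. Median centring, which moved the median of all genes tested from -0.01 to 0.16, made it 0.47. Quantile normalization made it 0.25.

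Xylb, the xylulokinase that hands the carbon to the pentose phosphates, had signals of 1061, 821 and 995 on the control arrays against 983, 959 and 1086 on the treated arrays. The treated range lay almost wholly within the span of the control rats. The log2 difference was 0.08, with an interval of -0.17 to 0.33, and it was -0.03 without control replicate 2, 0.16 without control replicate 1, 0.03 without treated replicate 3 or with quantile normalization, and 0.25 with median centring. An interval of this width leaves room for a change of the size seen for Dcxr in the upward direction.

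On the ascorbate branch the lactonase values overlapped between groups and the oxidase values did not. Rgn, regucalcin, is the gluconolactonase that forms gulonolactone. Its signals were 3536, 2447 and 3890.1 on the control arrays against 2884, 3175 and 3595 on the treated arrays, so the treated rats lay inside the control range. The log2 difference was -0.01, with an interval of -0.38 to 0.36. It changed sign with 3 of the 6 arrays left out in turn and with median centring (0.16) and array weights (0.01), so no direction can be given.

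Gulo encodes gulonolactone oxidase, the last enzyme of ascorbate synthesis, which humans and guinea pigs lack. Its brighter probe set read 2313, 2099 and 2101 on the control arrays against 1509, 1535 and 1782 on the treated arrays. The second probe set read 1577, 1352 and 1379 on the control arrays against 937, 954 and 1119.6 on the treated arrays. In both, every treated array was below every control array, control replicate 1 was the highest and treated replicate 3 the highest of its group. The log2 differences were -0.43 (interval -0.64 to -0.23) and -0.52 (-0.74 to -0.29), corresponding to 0.740 and 0.698 of the control level. The lower signal of Gulo was known when the set was put together, so these intervals are a description and no test. The 2 probe sets come from the same RNA and are not separate replicates. Under median centring, which moved the median of all genes tested from -0.01 to 0.16, the brighter probe set had a difference of -0.26 and the other -0.35. As multiples of the array median, the brighter probe set was 71.6 to 85.5 in the control group and 58.0 to 77.3 in the treated group, so the groups overlapped on that scale. With quantile normalization the differences were -0.48 and -0.58.

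**Figure D2:**
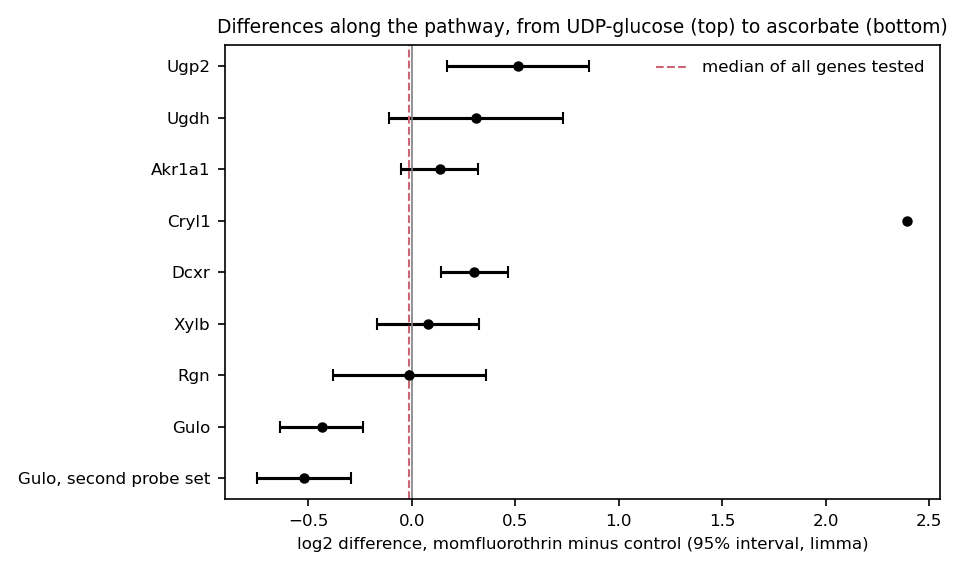
Log2 difference, treated minus control (horizontal axis), for each probe set in pathway order, with 95% intervals from limma for n = 3 arrays a group (none drawn for Cryl1, on which the set was chosen); the dashed line is the median of all 9200 genes. Cryl1 is at 2.39, both Gulo probe sets are below 0, and the intervals of Ugdh, Akr1a1, Xylb and Rgn include 0. The lower signal of Gulo was known when the set was put together.

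Seen over the whole table, 1 of the 8 members, Cryl1, was among the genes past the adjusted threshold of 0.05 upward, where the share over all genes was 0.196%, and none was past it downward (0.0217%). As Cryl1 was the reason for choosing the pathway, nothing is read from that count, which fell to 0 without treated replicate 2, without treated replicate 3 or with eBayes run without its trend. The other 7 genes did not pass, with adjusted p from 0.136 for Gulo to 0.985 for Rgn in limma (0.115 for the second Gulo probe set). The intervals given for Ugp2, Dcxr and Gulo exclude 0 only one gene at a time, without adjustment for the genes tested. Groups did not overlap upward for 2 members (9.04% of all genes) and downward for 1 (9.23%), 3 of 8 in all against 18.3% of all genes. Of the 8 log2 differences, 6 were above 0, against 47.5% of all genes, and their median was 0.22 against -0.01 for all genes. The counts without overlap, the count above 0 and the median all include Cryl1 and Gulo. The directions of these 2 genes were known when the set was put together, so nothing is read from any of these figures.

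A ratio of signals within an array is free of the scaling between arrays, so each member was also set against Gulo on its own array. The level of such a ratio between different probe sets has no meaning, but its change between groups does. The log2 ratio of Dcxr to Gulo was -0.58, -0.42 and -0.37 on the control arrays against 0.30, 0.36 and 0.18 on the treated arrays. For Rgn, the neighbour of Gulo on the same branch, it was 0.61, 0.22 and 0.89 on the control arrays against 0.93, 1.05 and 1.01 on the treated arrays. The ratio was higher on all 3 treated arrays for each of the 7 other members, with changes of 0.42 for Rgn to 2.83 for Cryl1 on the log2 scale. This held for 55.8% of all genes set against Gulo, so it shows unequal change of Gulo and of most genes and nothing particular to the pathway. Gulo was known to be lower in treated livers when it was taken as the reference, which favours higher ratios. The change for Rgn, whose own log2 difference was -0.01, is largely that of Gulo.

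The rats within a group also had a similar order for several members. Control replicate 3 was the highest control for 5 of the 9 probe sets and control replicate 2 the lowest for 6. Among treated rats, replicate 3 was the highest for 6 of the 9 probe sets and replicate 1 the lowest for 7. Both Gulo probe sets enter these counts, and the shares over all genes were not counted. The 6 hepatocyte markers on the array were likewise all lowest on treated replicate 1 and highest on treated replicate 3. This order of the treated rats is therefore not particular to the pathway. The labels name no property that sets these rats apart.

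Markers of liver zones and of other cells were read beside these values. The summed signal of 7 pericentral hepatocyte markers, 1 of them never over the array median, was 17992 to 20382 in the control group and 16051 to 17358 in the treated group. That of 7 periportal markers was 30036 to 33708 in the control group and 28319 to 29491 in the treated group. Both sums were lower without overlap, as for Gulo, but as multiples of the array median the groups overlapped in both. Cyp2e1 and Cyp1a2 held most of the pericentral sum, and the groups overlapped for each of these genes. The lowest and highest log2 differences were -0.56 for Oat and -0.01 for Glul in the pericentral list, and -0.77 for Sds and 0.03 for Hal in the periportal list. None of the 38 markers tested over all cell types passed the threshold in limma. The part of these markers in the Gulo values was not tested. The summed signal of 5 cholangiocyte markers was 99.7 to 137 in the control group and 149 to 175 in the treated group, higher without overlap as for Cryl1, also as multiples of the array median. Epcam, at a log2 difference of 0.63, held most of that sum, and 3 of the 5 never exceeded the array median. The part of these markers in the Cryl1 values was not tested. The sums of Kupffer cell, stellate cell, endothelial, lymphocyte and red blood cell markers overlapped between the groups, and 4 of the 5 lymphocyte markers never exceeded the array median. Those of 6 hepatocyte and 5 pancreas markers overlapped as well. All 6 hepatocyte markers nevertheless had log2 differences below 0 (median -0.11), 2 of them without overlap. Lower signal was thus not confined to the zone lists, whose medians were -0.25 (pericentral) and -0.11 (periportal). As multiples of the array median, the endothelial sum was higher in the treated group without overlap. Its markers were split, with 2 log2 differences above 0 and 3 below 0, from -0.45 for Eng to 0.31 for Lyve1.

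Other genes of the pathway were taken from 5 lists, drawn up by function with earlier results of these data known. Of their 58 genes, 36 were tested. Of these 36, Ugt2b1 rose (0.196% of all genes did), none fell (0.0217% of all genes), and 35 did not pass. Their median log2 difference was 0.05. As earlier results were known when the lists were drawn up, nothing is read from the count. Among 7 genes that supply glucose to UDP-glucose none passed (median -0.11). Galt, which makes UDP-galactose from UDP-glucose, had signals of 473, 538 and 493 on the control arrays against 419.8, 387 and 378 on the treated arrays, without overlap (log2 -0.34 ± 0.09, SE, n = 3, adjusted p = 0.233 in limma). Slc2a2, the glucose transporter of hepatocytes, had 2111, 1905 and 2087 on the control arrays against 2082, 2579.97 and 2891 on the treated arrays, with overlap (log2 0.30 ± 0.12, adjusted p = 0.404 in limma), and a difference of 0.19 without treated replicate 3. With median centring Galt was at -0.17 and Slc2a2 at 0.47, and with quantile normalization at -0.38 and 0.26. Pgm1 is a phosphoglucomutase that interconverts glucose 1-phosphate and glucose 6-phosphate, and Pgm2 belongs to the same family. Pgm1 and Pgm2 were without overlap upward (log2 0.12 ± 0.08 and 0.29 ± 0.13, adjusted p = 0.579 and 0.452 in limma) and are named after their values were seen. In all, 2 of the 7 were without overlap upward (9.04% of all genes) and 1 downward (9.23%).

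Among 9 genes that use or carry UDP-glucuronate, 1 rose and none fell, against 0.196% and 0.0217% of all genes (median 0.13). This was Ugt2b1, a glucuronosyltransferase of the hepatocyte, with signals of 1676, 1234 and 1408 on the control arrays against 4436, 3931 and 5050.01 on the treated arrays. All treated arrays were far above all controls (log2 1.64 ± 0.13, SE, n = 3, adjusted p = 0.00202 in limma). Members of this family are close in sequence, so signal shared between them is possible. The call of Ugt2b1 was lost when eBayes was run in limma without the trend (adjusted p = 0.066). Its list was drawn up with earlier results known, so nothing is read from the count of 1 in 9.

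Among 9 genes of the pentose phosphates beyond xylulose none passed (median -0.06). H6pd, the hexose 6-phosphate dehydrogenase of the endoplasmic reticulum, had signals of 544, 560.1 and 514 on the control arrays against 623, 612 and 796 on the treated arrays, without overlap (log2 0.32 ± 0.11, adjusted p = 0.352 in limma). Its difference was 0.20 without treated replicate 3. Taldo1, transaldolase, had 468, 388 and 433 on the control arrays against 563, 446 and 605 on the treated arrays, with overlap (log2 0.32 ± 0.13, adjusted p = 0.417 in limma). Median centring put both at 0.49, and quantile normalization put both at 0.28. Sord, which links xylitol to D-xylulose between Dcxr and Xylb, had 3092, 3095 and 3201 on the control arrays against 3018, 3315 and 3367 on the treated arrays. It is named here after its values were seen, for its place between the members, and its log2 difference was 0.05 with an interval of -0.12 to 0.21.

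Of 8 genes of ascorbate transport and recycling none passed (median 0.01). Gsto1, an omega-class glutathione transferase that can reduce dehydroascorbate, had signals of 1484, 1483 and 1739 on the control arrays against 1802, 1988 and 1971 on the treated arrays, without overlap (log2 0.29 ± 0.09, adjusted p = 0.280 in limma). Cyb5r3, a cytochrome b5 reductase that takes part in ascorbate recycling, had 1011, 1052 and 1100.2 on the control arrays against 1210.4, 1193 and 1216 on the treated arrays, without overlap (log2 0.20 ± 0.07, adjusted p = 0.378 in limma). With median centring Gsto1 was at 0.47 and Cyb5r3 at 0.37, and with quantile normalization at 0.25 and 0.16. In this list 3 of 8 genes were without overlap upward (9.04% of all genes) and none downward (9.23%). In the last list of 3 genes none passed (median 0.08). Miox, the inositol oxygenase that opens another way to glucuronate, had a log2 difference of 0.16 ± 0.22, and the aldose reductase Akr1b1 0.08 ± 0.15 (adjusted p = 0.811 and 0.858 in limma). Both changed sign under another setting.

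**Figure D3:**
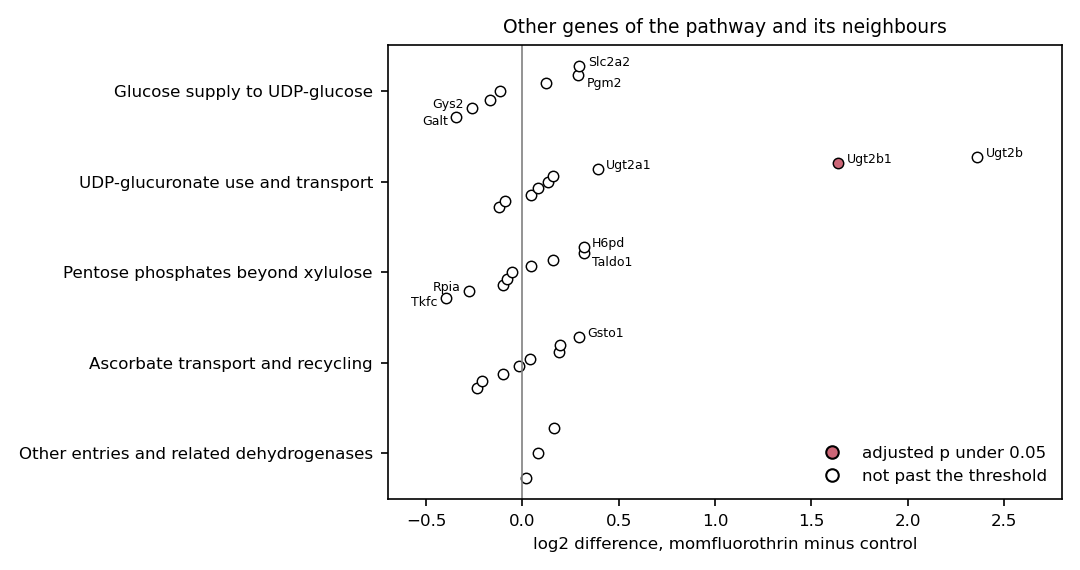
Log2 difference, treated minus control (horizontal axis), of the 36 tested genes in 5 lists around the pathway, 1 point a gene, filled where the limma adjusted p was under 0.05. Ugt2b1 at 1.64 is the filled point; Ugt2b at 2.36 rests on 1 low control array and did not pass.

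Genes with the profile most like that of Cryl1 and of Gulo were found by the root mean square difference over the 6 arrays of log2 signals, each taken minus its own mean. For Cryl1, whose profile is mostly its rise, these were Ggt1 (0.30), Ces2c (0.34), Styxl1 (0.51), Akr7a3 (0.53) and Ugt2b1 (0.59), against a median of 1.26 over all genes. Ggt1 is the gamma-glutamyltransferase that cleaves glutathione outside the cell, Ces2c a carboxylesterase and Akr7a3 an aldehyde reductase. Ggt1 had signals of 33.5, 52.2 and 33.4 on the control arrays against 144, 233 and 165 on the treated arrays. As for Cryl1, its highest control was replicate 2 and its lowest treated array replicate 1. Ggt1 was picked for likeness on these same arrays, so nothing is read from that order. Styxl1 stayed at 3.47 to 20.0 in control livers, under the array medians, so its likeness rests on dim signals.

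For Gulo the nearest profiles were Pde7a (0.04), Mfsd4b1 (0.06), Insig2 (0.06), Chn2 (0.07) and Mlxipl (0.08), against a median of 0.29 over all genes. Insig2 encodes a membrane protein of the endoplasmic reticulum that holds back the sterol-sensing SREBP system, and Mlxipl the glucose-responsive factor ChREBP. Insig2 had signals of 4295, 4196 and 3942 on the control arrays against 3095, 3166 and 3657 on the treated arrays, and Mlxipl 145, 132 and 129 on the control arrays against 101, 110.3 and 118 on the treated arrays. For all 5, every treated array was below every control array, and treated replicate 3 was the highest of its group, as for Gulo. The 5 were picked for likeness on these same arrays, so this shared order largely follows from the choice, and nothing is read from it. None of the 5 passed the threshold (adjusted p of 0.215 to 0.426 in limma).

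**Figure D4:**
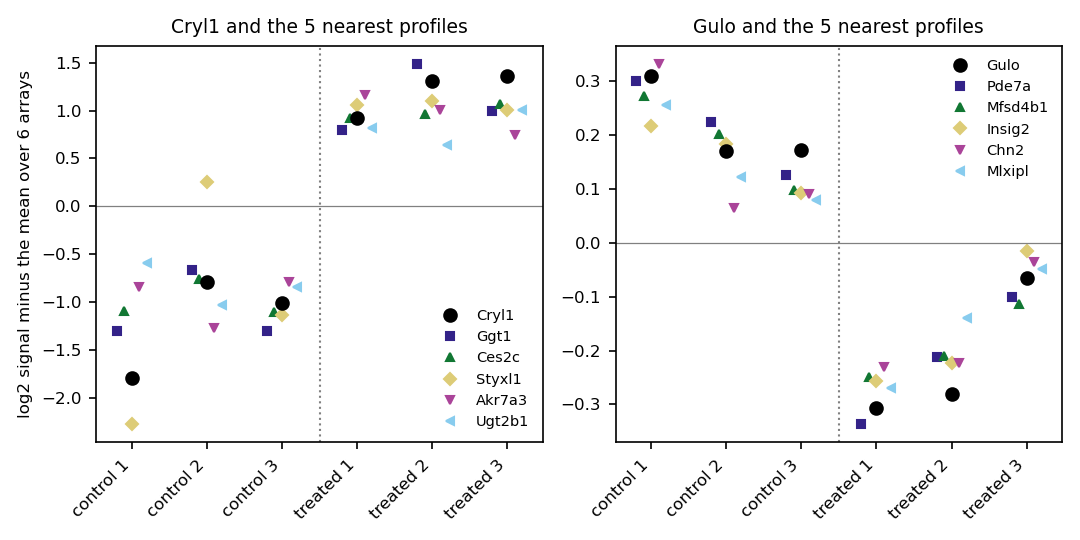
Log2 signal minus the gene's mean over the 6 arrays (vertical axis) on each array, for Cryl1 (left) and Gulo (right) in black and the 5 genes nearest to each in colour; the dotted line separates control from treated arrays. The vertical scales differ, with Cryl1 spanning more than 3 log2 units and Gulo less than 1.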

How the data were processed

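Liver RNA of 6 rats, 3 control and 3 treated, was measured on 1 Affymetrix array each. The authors deposited linear signal intensities, for which the submitters' processing notes name MAS5 without version or settings. Each array has a trimmed mean of about 100 (2% left out at each end), so no further scaling was applied. The number of arrays limits the precision.

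Of 31099 probe sets, 57 control probe sets were left out, and 15778 with a signal over the array median on at least 3 arrays were kept. Names came from GEO's platform annotation, in which 20826 probe sets have 1 symbol, 436 several and 9780 none; 20764 of the first kind matched the GRCr8 gene table. Where several kept probe sets had a gene's symbol, the one of highest mean log2 signal stood for it. Log2 signals (no pseudocount) went into limma 3.58.1 under R 4.3.3, with lmFit and an eBayes intensity trend, and p-values were adjusted by Benjamini-Hochberg over the 15778 kept probe sets. The script was tested on simulated data.

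Members, gene lists and motifs were chosen with earlier results of these data known. Named are all members, list genes past the threshold or else the 2 of smallest p in a list, and the 5 nearest profiles of Cryl1 and Gulo. Alternatives changed the filter, scaling, pseudocount (16), variance model, weights, probe set rule and block, and left out each array in turn. No batch is given in the labels, which call the replicates biological.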

Additional observations from a re-analysis of the deposited data

How the results depend on the processing

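Across 15 alternatives, Ugp2, Ugdh, Akr1a1, Cryl1 and Dcxr kept a positive log2 difference and Gulo a negative one (-0.51 to -0.26). Xylb was negative without control replicate 2, and Rgn ranged from -0.21 to 0.12 over the arrays left out and was 0.16 with median centring and 0.0091 with array weights. Over the arrays left out, Xylb ranged from -0.028 to 0.16 and Miox from -0.13 to 0.38; Miox was negative without control replicate 3, and Akr1b1 was -0.14 as the mean of its probe sets. Cryl1 ranged from 2.10 to 2.60. The number of genes past the threshold was 20, and it was 50 with median centring (49 higher, 1 lower), 2 with eBayes without a trend, 13 with a replicate block and 4 to 21 with 1 array left out: 13, 4 and 6 without treated replicates 1, 2 and 3. The number of members past it was 1, and 0 with eBayes without a trend; it was 0 to 1 with 1 array left out. For the pathway lists it was 1, and 0 with eBayes without a trend. The causes were not tested. Deviations of same-numbered rats from their group means had r of -0.10, 0.10 and -0.06, and those of differently numbered rats -0.07 to 0.15. With 3 arrays a group, such values cannot decide whether the numbers pair the rats, and the labels do not say. The block changed no member's call. Median centring over all probe sets, many of them dim, follows the lower array medians of the treated group.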

Other observations

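Ugt2b, a glucuronosyltransferase gene that uses the UDP-glucuronate made by Ugdh, stood out in 1 control rat. The control arrays read 6643, 31.1 and 6821 in the order of replicates 1 to 3, and the treated arrays 6087, 5285 and 5920.1. Control replicate 2 was close to its array median of 28.5, while the other 5 rats were within a narrow range. That rat sets the log2 difference, which was 2.36 ± 1.74 (SE, n = 3) with a limma adjusted p of 0.636. Control replicate 2 was also the lowest control for 6 of the 9 pathway probe sets, both Gulo probe sets among them, by far smaller margins. How often it was the lowest control over all genes was not counted, so nothing is read from this.

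A pair of probe sets annotated to all 8 Ugt1a genes, which share part of their transcript, represent none of them alone. They had log2 differences of 0.18 ± 0.09 and 0.14 ± 0.10 (SE, n = 3, adjusted p = 0.452 and 0.604 in limma), and the groups overlapped in both.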
